A study of Mus musculus with 21 samples.

Results

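The 10 genes described here, *Arntl* (also named *Bmal1*), *Clock*, *Npas2*, *Per1*, *Per2*, *Per3*, *Cry1*, *Nr1d1*, *Nr1d2* and *Dbp*, are core components and a direct output of the circadian clock. They were chosen by their place in the clock, from both the activating and the repressing side, so that genes that peak at opposite times of day could be set against each other in each mouse. They are 10 of the 46517 Ensembl genes in the deposited table, and all 10 were detected in every mouse. The study compared hearts of *Notch3+/+* (control) and *Notch3-/-* mice on a C57BL/6J background, to learn what loss of the receptor does to the heart. Bulk RNA-seq was made from hearts of 4 control and 3 *Notch3-/-* mice, with 3 technical libraries from each mouse, 21 libraries in all. The study names the left ventricle as its qPCR tissue, and for the RNA-seq it names only the heart. The study's legend on the bulk RNA-seq gives an age of 10 to 14 months, and the mice were kept in 12 h light and 12 h dark. In the *Notch3-/-* mice *lacZ* is inserted into the *Notch3* locus, and the study used beta-galactosidase as a proxy for *Notch3* in their hearts. The time of day at which each heart was collected and the sex of each sequenced mouse are not given in the sources used here. The library titles carry a mouse identifier that begins with X for control mice 1 and 2 and with k for control mice 3 and 4 and for all 3 *Notch3-/-* mice. What these letters stand for is not given, and they are called the label series below.

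The 3 technical libraries of a mouse were summed, so that each mouse counts once. The summed totals were 3091461, 4638786, 4208205 and 3046326 counts for the controls in their order, and 3828763, 5167869 and 5086740 counts for *Notch3-/-* mice 1 to 3. Single control libraries held 464390 to 2134368 counts (median 1196276.5), and single *Notch3-/-* libraries held 979804 to 2427783 (median 1583662). At this depth the lower clock genes rest on few reads. For *Arntl* the summed counts were 15, 51, 209 and 214 in controls against 226, 240 and 313 in the *Notch3-/-* hearts. *Npas2* had 16, 3, 34 and 40 against 26, 46 and 61, and *Per2* had 91, 202, 69 and 9 against 94, 137 and 19. *Dbp* had 190 counts in control mouse 1, 307 in control mouse 2, 109 in control mouse 3 and 28 in control mouse 4, against 74, 78 and 65. The 3 counts of *Npas2* in control mouse 2 leave its level there poorly known, while *Arntl*, *Per2* and *Dbp* differ between mice by far more reads than that. Values below are CPM, as edgeR computes it from the TMM-scaled library, always in the order control mice 1, 2 (X-labelled), 3, 4 (k-labelled), then *Notch3-/-* mice 1, 2, 3 (k-labelled).

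ARNTL pairs with CLOCK or with NPAS2, and the pair binds E-box sequences and drives the *Per*, *Cry* and *Nr1d* genes and *Dbp*. PER and CRY proteins accumulate and inhibit that pair, while NR1D1 and NR1D2 repress *Arntl*, *Npas2* and *Clock*, so that *Arntl* peaks when *Dbp* and the *Nr1d* genes are at their lowest. *Cry1* peaks later than the *Per* genes, and *Nr1d1* and *Dbp* peak earlier than *Per2*, which lets a single sample be placed roughly in the daily cycle.

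Short promoter windows were searched for the sequence motifs of these inputs. RefSeq start sites on GRCm38.p6 gave 13 windows, from 250 bases before to 50 bases after the start, for 9 of the 10 genes, and no window was matched to *Per2*. Both strands were searched, and the share among all 32817 windows is given for each motif. The E-box CACGTG occurs in 2346 windows (7.15%), among them those of *Per1*, at -166 to -161 from the start, and *Cry1*, at -60 to -55. The related CACGTT occurs in 1538 windows (4.69%), among them those of *Cry1*, at -79 to -74, and *Nr1d1*, at -28 to -23. The D-box TTATGTAA or TTACGTAA, bound by DBP and its relatives, occurs in only 346 windows (1.05%), and *Per3* carries it at -205 to -198 and again at -158 to -151. The element bound by NR1D proteins, TAGGTCA or TGGGTCA, occurs in 2120 windows (6.46%). Among the searched windows of these genes it lies only in *Arntl*, after the start site. The cAMP element TGACGTCA occurs in 588 windows (1.79%) and in none of the 13 windows of these 9 genes. The stretches before the start of the 4 genes with a clock motif there are shown on the strand of the gene, with the motifs in capitals. A motif that lies on the opposite strand reads in reverse complement.
Per1, chr11:69098699-69098947, plus strand: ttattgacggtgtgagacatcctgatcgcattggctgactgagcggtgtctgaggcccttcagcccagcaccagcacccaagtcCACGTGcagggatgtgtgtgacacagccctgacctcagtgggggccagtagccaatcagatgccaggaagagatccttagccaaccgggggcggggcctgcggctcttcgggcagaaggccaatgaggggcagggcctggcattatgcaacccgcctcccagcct
Per3, chr4:151044666-151044915, minus strand: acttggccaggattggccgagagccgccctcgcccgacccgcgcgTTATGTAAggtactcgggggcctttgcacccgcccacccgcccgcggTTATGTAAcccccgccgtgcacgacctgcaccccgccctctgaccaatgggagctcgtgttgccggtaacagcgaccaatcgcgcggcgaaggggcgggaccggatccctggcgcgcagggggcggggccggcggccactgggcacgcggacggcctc
Cry1, chr10:85185065-85185304, minus strand: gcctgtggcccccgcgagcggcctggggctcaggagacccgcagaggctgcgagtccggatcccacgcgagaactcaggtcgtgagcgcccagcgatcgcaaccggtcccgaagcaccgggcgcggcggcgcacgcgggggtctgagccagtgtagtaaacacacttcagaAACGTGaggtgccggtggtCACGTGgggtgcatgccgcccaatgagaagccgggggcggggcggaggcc
Nr1d1, chr11:98775378-98775627, minus strand: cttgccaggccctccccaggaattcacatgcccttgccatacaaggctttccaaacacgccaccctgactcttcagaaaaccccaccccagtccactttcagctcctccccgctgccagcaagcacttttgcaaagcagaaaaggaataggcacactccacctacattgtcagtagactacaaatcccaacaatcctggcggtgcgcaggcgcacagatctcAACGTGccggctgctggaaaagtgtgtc
A motif in a sequence does not show that it is bound in these hearts, and binding was not measured here. Sequence outside these windows was not searched, so a window without a motif does not show that the gene lacks that input.

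*Notch3* was read first, as a check of the labels. It stood at 57.3, 42.1, 57.6 and 61.8 CPM in the control mice and 6.01, 7.57 and 4.73 CPM in the *Notch3-/-* mice, so every mouse carries the label its *Notch3* calls for. *Notch3* fell in *Notch3-/-* hearts (log2 fold change -3.16, SE 0.23, FDR 0.00173 by the quasi-likelihood test of edgeR, adjusted by Benjamini-Hochberg). Of 13 cardiomyocyte genes all 13 were detected, *Ttn* highest, and they summed to 37922, 27934, 32155 and 36840 CPM in controls and 37501, 25433 and 27299 CPM in *Notch3-/-* mice, with overlap between the genotypes. Of 30 hepatocyte genes all 30 were detected, and they summed to 267, 421, 192 and 214 CPM in controls but to 11379, 21609 and 394 CPM in *Notch3-/-* mice. The one with the highest mean over the 7 mice, *Trf*, stood at 131.7, 143.7, 101.9 and 98.2 CPM against 1420.2, 1790.1 and 130.3 CPM. *Alb*, higher than *Trf* in *Notch3-/-* mice 1 and 2, stood at 22.4, 81.1, 2.35 and 10.7 CPM against 1705, 1875 and 66.9 CPM, and 4, 0, 7 and 9 of the 30 had no count in the control mice against 0 in each *Notch3-/-* mouse. *Notch3-/-* mice 1 and 2 thus carry hepatocyte transcripts far above the other 5 mice, and how much of the clock gene counts in these 2 mice comes from liver RNA was not measured. Reads of *Xist* (8.23, 238, 0.471, 1.00, then 472, 1.05, 0.567 CPM) and *Ddx3y* (118, 0.843, 129.9, 96.2, then 0.273, 134, 133 CPM), picked after their values were seen, place control mouse 2 and *Notch3-/-* mouse 1 apart from the other 5. That division crosses both genotype and label series.

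Per kb of exon, *Nr1d1* was by far the most abundant of the 10 genes, with 116.42 CPM per kb (SD 33.1, n = 7 mice). *Nr1d2* (24.7, SD 9.07) and *Per1* (24.2, SD 10.8) came next, followed by *Dbp* (10.1, SD 7.84), *Cry1* (9.02, SD 1.88) and *Per3* (6.35, SD 3.55). The activators were lower: *Arntl* 5.84 (SD 3.43), *Clock* 4.96 (SD 1.08) and *Npas2* 1.66 (SD 0.88). *Per2* lay among them with 3.66 (SD 2.49). The SD exceeds 50% of the mean in *Arntl*, *Npas2*, *Per2*, *Per3* and *Dbp*, and is near 20% of it in *Clock* and *Cry1*. Over the 7 mice the SD of log2 CPM had a median of 0.80 among the 10 clock genes, beside 0.30 among all genes.

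Among the activators, *Arntl* stood at 4.94, 10.7, 49.2 and 71.5 CPM in control mice and 61.8, 50.5 and 59.2 CPM in *Notch3-/-* mice. Control mice 1 and 2 lay far below the other 5, and the highest and lowest mouse, both controls, were 14.5-fold apart. *Clock*, the usual partner of ARNTL, stood at 49.4, 53.1, 61.4 and 73.8 CPM against 92.4, 69.2 and 76.96 CPM, with the same 2 control mice lowest but a spread of only 1.87-fold. *Npas2*, which can take the place of *Clock*, stood at 5.27, 0.632, 8.00 and 13.4 CPM against 7.10, 9.68 and 11.5 CPM, again lowest in control mice 1 and 2. Mean *Arntl* was 34.1 CPM (SD 31.7, n = 4) in control and 57.1 CPM (SD 5.91, n = 3) in *Notch3-/-* mice, and the control SD nearly equals the mean. *Clock* averaged 59.4 CPM (SD 10.8) against 79.5 CPM (SD 11.8), and *Npas2* 6.81 CPM (SD 5.32) against 9.44 CPM (SD 2.22). For all 3 activators the *Notch3-/-* mice lay among or next to control mice 3 and 4.

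The *Per* genes, whose proteins inhibit the activators, ran the other way. *Per1* stood at 185, 207, 183 and 81.8 CPM in control mice and 104, 146 and 44.1 CPM in *Notch3-/-* mice. Its highest values are in control mice 1, 2 and 3 and its lowest in control mouse 4 and *Notch3-/-* mouse 3. The libraries of control mouse 2 were themselves uneven for *Per1*, with 71.2, 320.4 and 354 CPM, and so were those of *Notch3-/-* mouse 3, with 91.9, 46.99 and 22.1 CPM. *Per2* stood at 30.0, 42.6, 16.2 and 3.01 CPM against 25.7, 28.8 and 3.59 CPM, a 14.2-fold range with the same 2 mice, 1 of each genotype, at the bottom. *Per3* stood at 112, 105, 56.7 and 31.1 CPM against 42.4, 55.1 and 25.9 CPM, highest in the 2 X-labelled mice and again lowest in control mouse 4 and *Notch3-/-* mouse 3. Averages were 165 CPM (SD 56.2) against 98.1 CPM (SD 51.2) for *Per1*, 22.9 CPM (SD 17.1) against 19.4 CPM (SD 13.7) for *Per2* and 76.0 CPM (SD 38.6) against 41.1 CPM (SD 14.6) for *Per3*, with overlapping mice in each case. *Cry1*, the late repressor, was even, at 19.8, 32.2, 32.7 and 37.4 CPM against 24.3, 28.8 and 35.6 CPM, with means of 30.5 CPM (SD 7.55) and 29.6 CPM (SD 5.65). Its 2 highest values belong to control mouse 4 and *Notch3-/-* mouse 3, the 2 mice that were lowest in all 3 *Per* genes.

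The nuclear receptor *Nr1d1* stood at 562, 342, 346 and 273 CPM in control mice and 383, 355 and 246 CPM in *Notch3-/-* mice, a 2.29-fold range. Its relative *Nr1d2* stood at 185, 215, 119 and 77.5 CPM against 127, 118 and 94.4 CPM, highest in control mice 1 and 2. *Dbp*, a transcription factor driven directly by the activators, stood at 62.6, 64.7, 25.6 and 9.35 CPM against 20.2, 16.4 and 12.3 CPM. *Dbp* in the 2 X-labelled controls was thus more than 2-fold above every k-labelled mouse, and the whole range was 6.92-fold. Means were 381 CPM (SD 125) against 328 CPM (SD 72.6) for *Nr1d1*, 149 CPM (SD 62.4) against 113 CPM (SD 16.9) for *Nr1d2* and 40.6 CPM (SD 27.5) against 16.3 CPM (SD 3.97) for *Dbp*. In *Dbp* all 3 *Notch3-/-* mice fall between control mice 3 and 4, and in *Nr1d2* so do mice 2 and 3, while mouse 1 lies above control mouse 3 and below both X-labelled controls. The panels with 1 point per mouse for each clock gene show the X-labelled controls at opposite ends for *Arntl* and *Dbp*.

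**Figure D1:**
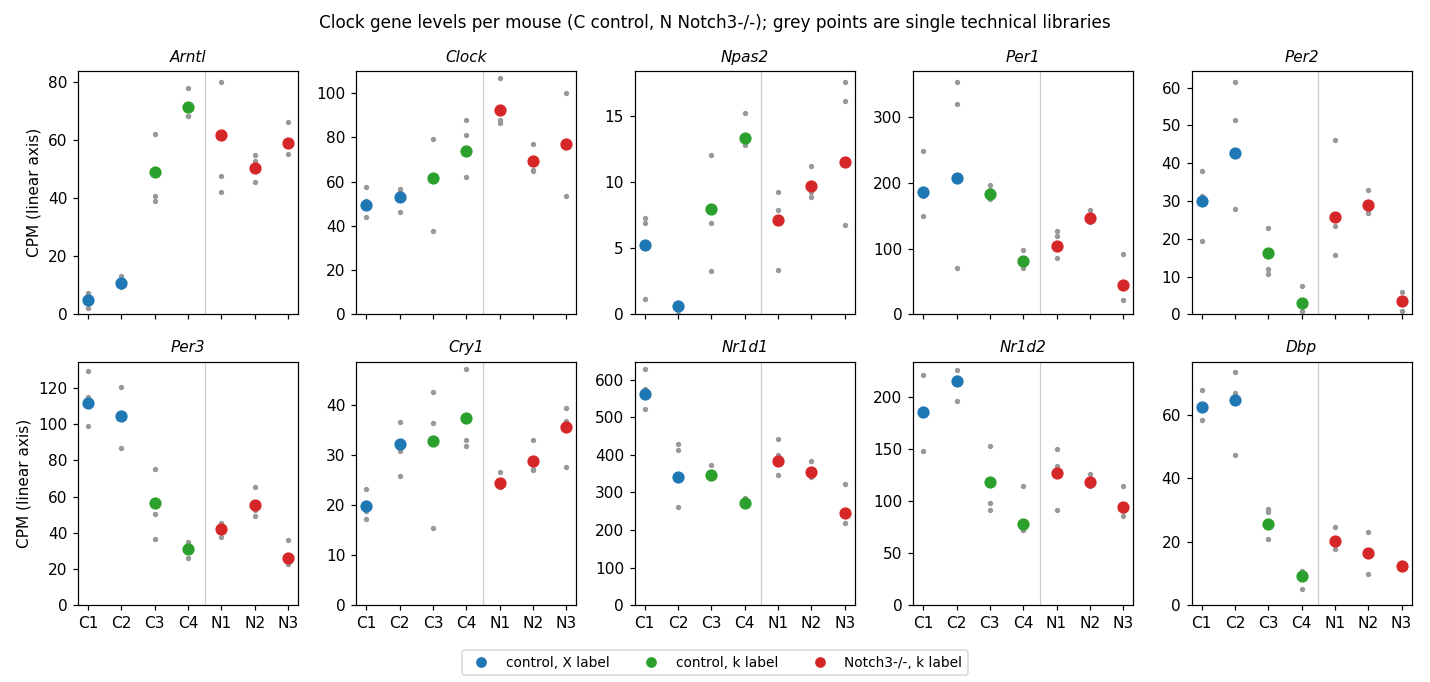
Levels of the 10 clock genes in each mouse (CPM). C1 to C4, control mice; N1 to N3, *Notch3-/-* mice. Coloured points, the 3 technical libraries summed; grey points, single technical libraries. Blue, X-labelled control; green, k-labelled control; red, k-labelled *Notch3-/-*.

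Genes of opposite phase were then set against each other within each mouse. The log2 ratio of *Dbp* to *Arntl* was 3.54, 2.54, -0.93 and -2.87 in the control mice and -1.59, -1.59 and -2.22 in the *Notch3-/-* mice, a range of 6.41 log2 units (85.0-fold). Technical libraries of the same mouse had an SD of 0.55 for this ratio. The log2 ratio of *Nr1d1* to *Arntl* was 6.70, 4.93, 2.80 and 1.93 against 2.62, 2.80 and 2.05, a range of 4.77 with a technical SD of 0.44. Both ratios are largest in the X-labelled mice, and the *Notch3-/-* mice lie between control mice 3 and 4 or at most level with control mouse 3. *Cry1* over *Dbp*, late against early, was -1.64, -0.99, 0.34 and 1.95 against 0.26, 0.79 and 1.496, a range of 3.58 with a technical SD of 0.48. *Per2* over *Nr1d1* was -4.21, -2.99, -4.37 and -6.29 against -3.87, -3.60 and -5.92, a range of 3.30 with a technical SD of 0.70. This last ratio separates control mouse 4 and *Notch3-/-* mouse 3 from the other 5 and is the only one of these ratios in which X-labelled and k-labelled mice overlap. A contrast of the mean log2 CPM of *Nr1d1*, *Nr1d2*, *Dbp* and *Per3* minus that of *Arntl*, *Npas2* and *Clock* was 3.83, 4.10, 1.58 and 0.27 against 1.20, 1.26 and 0.47. Its range of 3.82 compares with a technical SD of 0.26. Read by the known order of the genes, control mice 1 and 2 have *Dbp* high and *Arntl* low, while control mouse 4 and *Notch3-/-* mouse 3 have *Arntl* and *Cry1* high and *Per1*, *Per2*, *Per3* and *Dbp* low. Control mouse 3 and *Notch3-/-* mice 1 and 2 lie between, with *Arntl* high and *Per2* still well above the 2 lowest mice. The balance of opposite-phase genes does not divide the mice by genotype. The spread of such ratios among mice collected at the same hour was not measured, and the hours are not given, so these values alone do not show that the mice were collected at different times. The panels with each phase ratio by mouse show the 2 X-labelled mice apart in 4 of the 5 measures.

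**Figure D2:**
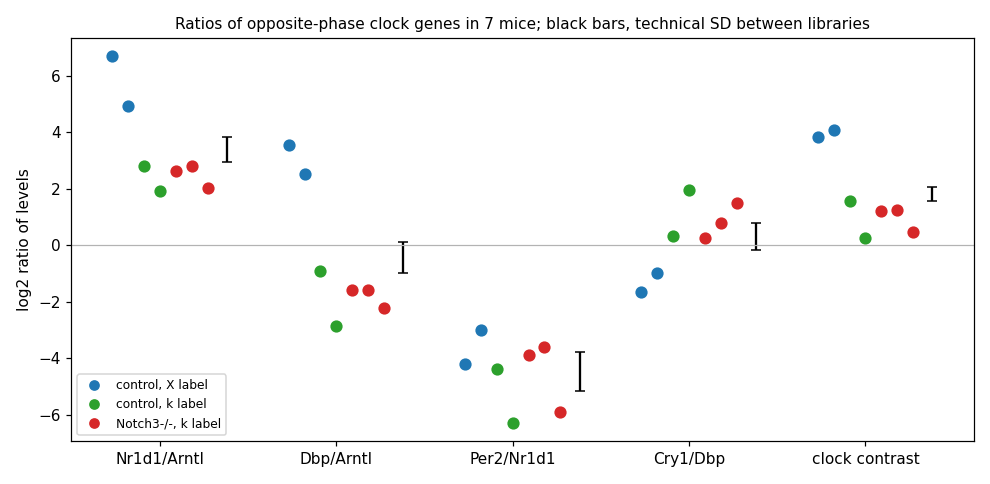
Log2 ratios of opposite-phase clock genes in each mouse: *Nr1d1* over *Arntl*, *Dbp* over *Arntl*, *Per2* over *Nr1d1*, *Cry1* over *Dbp*, and the clock contrast. Black bars, technical SD. Blue, X-labelled control; green, k-labelled control; red, k-labelled *Notch3-/-*.

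Differences between mice of the same genotype were tested against the spread among technical libraries with edgeR's quasi-likelihood F-test and Benjamini-Hochberg adjustment over all tested genes. That spread came from a joint fit of all 21 libraries, both genotypes together. Among the 4 control mice, 7 of the 10 clock genes differed at FDR below 0.05, where 442 of 13019 genes did so (3.4%). They were *Arntl* (edgeR with Benjamini-Hochberg adjustment, FDR 1.7e-09), *Dbp* (1.1e-06), *Per3* (1.3e-05), *Per2* (8.5e-05), *Nr1d2* (0.000176), *Nr1d1* (0.0014) and *Npas2* (0.00327). *Per1* (FDR 0.0706), *Cry1* (0.424) and *Clock* (0.526) missed that threshold in the same edgeR test with Benjamini-Hochberg adjustment. Among the 3 *Notch3-/-* mice, 3 clock genes differed, where 15.2% of all genes did: *Per2* (edgeR with Benjamini-Hochberg adjustment, FDR 3.6e-05), *Per3* (0.0155) and *Per1* (0.0161). In all 3 *Notch3-/-* mouse 3 had the lowest value of its genotype, as it had in *Nr1d1*, *Nr1d2* and *Dbp*, which did not pass. Without that mouse 0 clock genes differed between the other 2 by the same edgeR test, beside 1494 of 12871 genes (11.6%) at FDR below 0.05. At unadjusted p below 0.05 in edgeR there was 1 clock gene, beside 3192 of all genes (24.8%). Among all 7 mice 9 of 10 differed, all but *Cry1*, beside 19.2% of all genes. Among the 5 k-labelled mice, which span both genotypes, *Per2* (edgeR with Benjamini-Hochberg adjustment, FDR 4.4e-06), *Per1* (0.00322), *Per3* (0.00659) and *Dbp* (0.0109) differed, 4 of 10 beside 16.2% of all genes. *Arntl* (edgeR with Benjamini-Hochberg adjustment, FDR 0.4) did not pass among these 5 mice. It stood at 49.2 to 71.5 CPM in them, and at 4.94 and 10.7 CPM in the X-labelled mice. The SD of log2 CPM of the clock genes had a median of 0.76 in control mice beside 0.25 for all genes, and 0.34 in *Notch3-/-* mice beside 0.28.

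The label series was compared next, a comparison added after the values had been seen. In 8 of the 10 genes, all but *Cry1* and *Nr1d1*, the 2 X-labelled mice lie wholly above or wholly below the 5 k-labelled mice, where 10.5% of all genes do so. Among the control mice alone, X-labelled and k-labelled means were 7.84 and 60.3 CPM for *Arntl*, 2.95 and 10.7 CPM for *Npas2*, 63.6 and 17.5 CPM for *Dbp*, 108 and 43.9 CPM for *Per3* and 36.3 and 9.62 CPM for *Per2*. In this comparison of 2 with 2 control mice, 42 of 13901 genes passed FDR 0.05 with at least 1.5-fold change (0.302%), 21 in each direction. *Arntl* was 1 of them and the only clock gene, lower in X-labelled mice (log2 fold change -2.87, SE 0.34, FDR 0.00781 by edgeR with Benjamini-Hochberg adjustment). At unadjusted p below 0.05 in edgeR, 7 of the 10 clock genes differed, beside 6.73% of all genes: *Arntl* and *Npas2* (-1.98, SE 0.69) lower, and *Per2* (1.85, SE 0.49), *Dbp* (1.82, SE 0.35), *Per3* (1.28, SE 0.25), *Nr1d2* (1.02, SE 0.21) and *Nr1d1* (0.54, SE 0.22) higher. The remaining 3, *Per1* (0.56), *Clock* (-0.39) and *Cry1* (-0.41), missed it. Of the 7 genes with p below 0.05, the 2 negative ones are activators and the 5 positive ones are *Per* genes, receptors and *Dbp*. Whether the direction goes with the side of the clock was not tested. With all 7 mice and genotype in the model, 1 of 15209 genes was called between the label series (0.00658%) and 0 clock genes by edgeR with Benjamini-Hochberg adjustment, although 5 clock genes had an unadjusted p below 0.05 (3.54% of all genes) and DESeq2 called 3, *Arntl*, *Dbp* and *Nr1d2*, among 47 of 28790 genes (0.163%). With every gene of at least 1 count edgeR called 5 clock genes among 172 of 28790 genes (0.597%). With a minimum of 10 per mouse, which 8 of the 10 clock genes met, it called 1 among 2 of 12319 genes (0.0162%). With other size factors or any 1 mouse left out edgeR called 0 clock genes, beside 0 to 4 of all genes. At unadjusted p below 0.05 in edgeR there were 3 to 6 clock genes in these fits, beside 1.97% to 4.9% of all genes. *Arntl* had the largest difference of the 10 (log2 fold change -2.91, SE 0.38, FDR 0.313 by edgeR with Benjamini-Hochberg adjustment), and its adjusted p ran from 5.4e-14 to 1 over the 12 alternative analyses. Time of collection and anything else that differs between the label series cannot be told apart.

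Other genes with a known daily rhythm or known inducers were looked up in the same comparison of control mice, where 6.73% of all genes had p below 0.05 in edgeR and 0.302% were called. Further loop genes with p below 0.05 in edgeR were *Ciart* (log2 fold change 2.14), *Bhlhe40* (0.82) and *Cry2* (0.49), higher in X-labelled mice, and *Nfil3* (-1.29), lower. *Ciart*, a repressor that follows *Dbp* in phase, stood at 38.2, 53.3, 16.5 and 3.34 CPM in controls and 9.56, 22.9 and 7.75 CPM in *Notch3-/-* mice. *Nfil3*, which opposes DBP at the D-box, stood at 12.5, 23.4, 42.3 and 47.4 CPM against 44.8, 42.1 and 50.1 CPM, the reverse of *Dbp*. Of 10 rhythmic output genes 7 were higher at p below 0.05 in edgeR, and 2 of them were called, *Tef* (1.16, FDR 0.036) and *Hlf* (1.64, FDR 0.0457), by edgeR with Benjamini-Hochberg adjustment. *Tef* and *Hlf* are the closest relatives of *Dbp*, and stood at 149, 199.6, 83.8 and 72.5 CPM against 102, 105 and 74.9 CPM, and at 35.2, 33.9, 13.2 and 8.68 CPM against 27.6, 23.3 and 13.4 CPM. The 7 glucocorticoid targets included 3 with p below 0.05 in edgeR, all higher in X-labelled mice: *Fkbp5* (1.42), *Zbtb16* (1.15) and *Klf9* (0.79). *Fkbp5* stood at 20.7, 80.9, 22.1 and 16.4 CPM against 26.5, 24.8 and 18.2 CPM, and *Zbtb16* at 76.7, 248, 93.2 and 53.1 CPM against 137, 118 and 54.1 CPM. The high value of both belongs to control mouse 2 alone, which is also highest in *Per1* and *Per2*. Of 9 immediate early genes *Fosb* was below the filter, and 7 of the other 8 were lower at p below 0.05 in edgeR, with *Fos* called (-2.77, FDR 0.0339 by edgeR with Benjamini-Hochberg adjustment), at 1.32, 4.00, 21.9 and 17.4 CPM against 15.6, 6.73 and 5.86 CPM. The bars of X minus k differences show 9 of the 10 rhythmic outputs on the side of *Dbp* and the 8 tested immediate early genes on the side of *Arntl*. In each list 7 had p below 0.05 in edgeR.

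**Figure D3:**
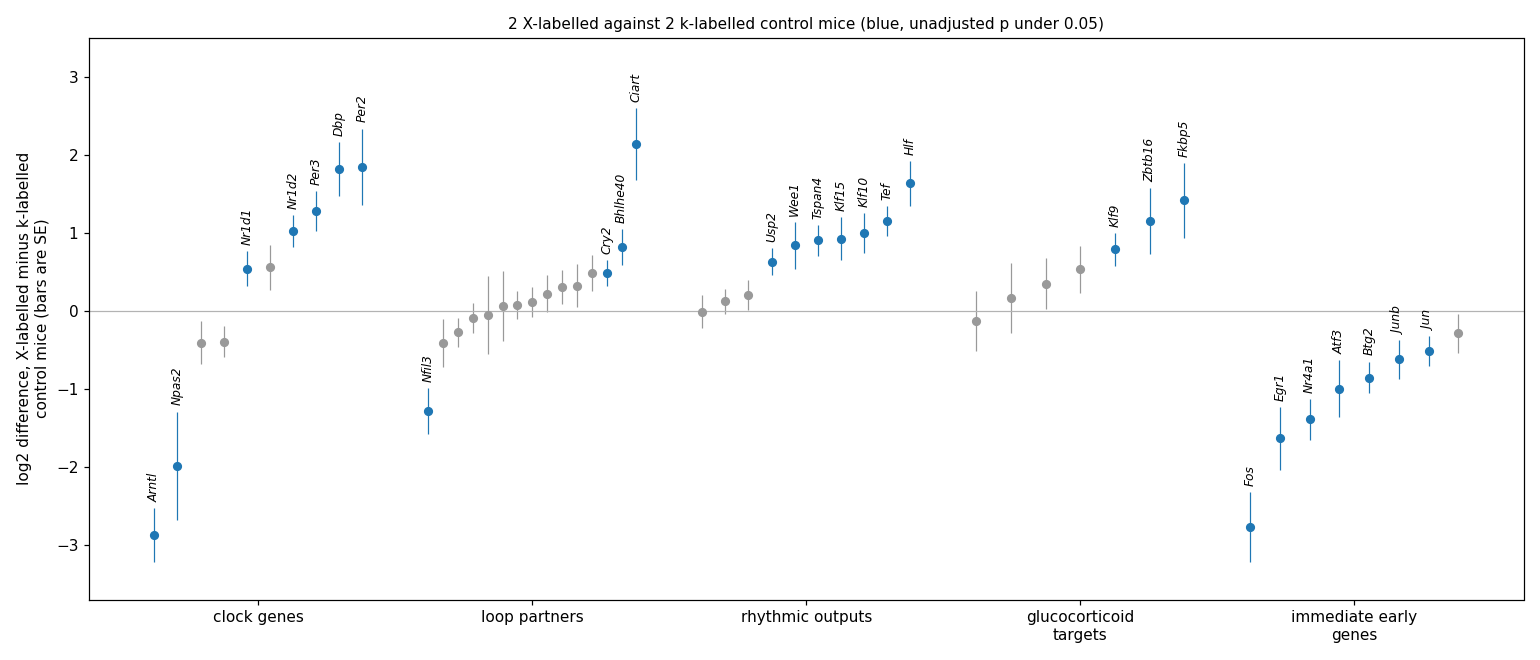
Log2 differences with SE between X-labelled and k-labelled control mice (2 with 2) for the clock genes, loop genes, rhythmic outputs, glucocorticoid targets and immediate early genes. Blue, unadjusted p below 0.05 in edgeR.

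The label series also separates genes with no named place in the clock. *Gm28438* was the 1 gene called in the 7 mice (-4.27, FDR 0.015 by edgeR with Benjamini-Hochberg adjustment), at 1.65, 1.48, 32.7 and 28.1 CPM against 23.2, 24.2 and 21.2 CPM. *mt-Nd3* stood at 29.0, 23.4, 3.29 and 5.01 CPM against 6.29, 2.94 and 3.21 CPM, *Trim12a* at 1.65, 1.48, 21.4 and 30.1 CPM against 9.56, 17.9 and 18.0 CPM, and *Upk3b* at 0.329, 0.421, 14.8 and 15.0 CPM against 9.29, 5.26 and 25.2 CPM. These 4 genes were picked after their values were seen, and in each of them the split between X-labelled and k-labelled mice is as clean as in *Arntl* or *Dbp*. A clean split occurs in 10.5% of all genes, so the picked genes alone show nothing about the label series. Of the 42 genes called between X-labelled and k-labelled control mice, *Arntl* was the only one of the 10 clock genes. What else sets the X-labelled mice apart is not given in the sources used here.

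Between genotypes, 1 of 14324 genes was called (0.00698%), *Notch3* itself, and 0 of the 10 clock genes were called by edgeR with Benjamini-Hochberg adjustment, by DESeq2 or by limma-voom. DESeq2 called 601 of 28790 genes (2.09%) and limma-voom called 1. Without *Notch3-/-* mouse 3 edgeR called 936 of 15008 (6.24%), again with 0 clock genes among them. In that fit 0 clock genes had an unadjusted edgeR p below 0.05, beside 16.3% of all genes. At unadjusted p below 0.05 there were 2 clock genes by edgeR, beside 10.4% of all genes, 2 by DESeq2, beside 6.7%, and 1 by limma-voom, beside 7.71%. They were *Dbp*, lower in *Notch3-/-* mice (log2 fold change -1.33, SE 0.55, edgeR p 0.0373, FDR 0.452 with Benjamini-Hochberg adjustment), and *Clock*, higher (0.42, SE 0.17, edgeR p 0.0376, FDR 0.453 with Benjamini-Hochberg adjustment). Over 21 alternative analyses the Benjamini-Hochberg adjusted p of edgeR and the other tools ran from 0.192 to 0.999 for *Dbp* and from 0.232 to 0.999 for *Clock*. Next came *Per3* (-0.89, SE 0.42, edgeR p 0.0602) and *Per1* (-0.75, SE 0.40, edgeR p 0.093). The others were *Arntl* (0.75, SE 0.67), *Npas2* (0.51, SE 0.65), *Nr1d2* (-0.40, SE 0.31), *Per2* (-0.27, SE 0.76), *Nr1d1* (-0.21, SE 0.24) and *Cry1* (-0.04, SE 0.23). The 4 control and 3 *Notch3-/-* mice overlapped in each of the 10 genes, where 8.53% of all genes show no overlap. The 3 positive values belong to the 3 activators and the 7 negative ones to the repressors, receptors and *Dbp*, the same signs as k-labelled against X-labelled control mice in all but *Cry1*. Both X-labelled mice are controls, so genotype and label series are partly confounded in this comparison. Within the 5 k-labelled mice, 2 control and 3 *Notch3-/-*, the difference was -0.12 for *Dbp*, -0.08 for *Arntl*, -0.10 for *Per3*, 0.23 for *Clock*, 0.08 for *Nr1d1* and 0.20 for *Nr1d2*. It was -0.17 for *Npas2*, -0.44 for *Per1*, -0.25 for *Cry1* and 0.97 (SE 1.00) for *Per2*, and 0 of 10 clock genes had an unadjusted edgeR p below 0.05, beside 949 of 14872 genes (6.38%), and 0 were called. With a hepatocyte score as a covariate in all 7 mice, 5 clock genes had an unadjusted edgeR p below 0.05 between genotypes, beside 621 of 14324 genes (4.34%), and 0 of all genes were called with Benjamini-Hochberg adjustment. In that fit the log2 fold changes were larger and less precise than without the score: -3.45 (SE 0.89) for *Per2*, -2.25 (SE 0.44) for *Per1*, -1.95 (SE 0.54) for *Per3*, -2.17 (SE 0.79) for *Dbp* and -0.94 (SE 0.42) for *Nr1d2*, the 5 genes with p below 0.05. They were 1.44 (SE 1.04) for *Arntl*, 1.35 (SE 0.97) for *Npas2*, 0.50 (SE 0.30) for *Clock*, -0.71 (SE 0.36) for *Nr1d1* and 0.26 (SE 0.36) for *Cry1*. The score was 1.38, 2.69, 0.58 and 0.83 in the control mice and 8.16, 9.35 and 2.70 in the *Notch3-/-* mice. Score and genotype are thus partly confounded, and the genotype term leans on *Notch3-/-* mouse 3, whose score is next to those of the controls. That mouse is the lowest of its genotype in each of the 5 genes with p below 0.05, so this fit does not isolate a genotype effect. The median of the 10 differences was -0.24 with all 7 mice and -0.09 with the 5 k-labelled mice, beside -0.0028 and 0.01 over all genes. The differences in *Dbp*, *Per3* and *Arntl* are thus small once the X-labelled controls are left out, and with 2 against 3 mice a smaller difference could go unseen. The paired points of log2 fold change for each clock gene show 8 of the 10 values nearer to 0 without the X-labelled mice, all but *Per2* and *Cry1*.

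**Figure D4:**
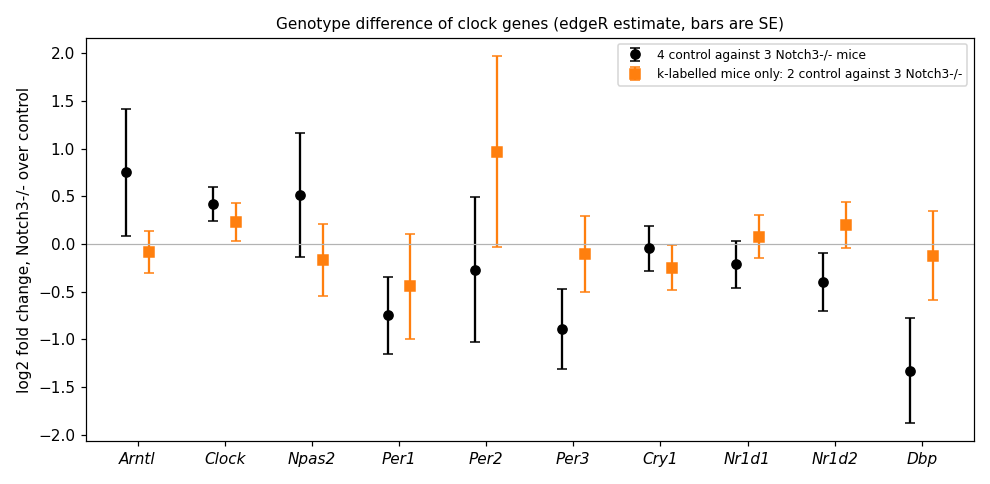
Log2 fold change with SE of each clock gene, *Notch3-/-* against control, with all mice (4 controls and 3 *Notch3-/-*) and with the k-labelled mice alone (2 controls and 3 *Notch3-/-*).

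Pairs of clock genes were compared over the 7 mice, with exact permutation p and Benjamini-Hochberg adjustment over 45 pairs. In *Arntl*, *Npas2* and *Per2* the mice form separate clusters, with a gap wider than 50% of the range, and no pooled r is given for pairs with these genes. Of the 45 pairs 10 passed an adjusted p of 0.05, 5 of them in the 21 pairs without these genes. *Nr1d2* and *Dbp* went together most closely (r 0.97, rho 0.96, exact permutation p 0.000992, Benjamini-Hochberg adjusted p 0.0149), and r was 0.90 without the 2 farthest mice. *Per3* went with *Dbp* (r 0.95, rho 0.89, exact permutation p 0.00456, Benjamini-Hochberg adjusted p 0.0228) and with *Nr1d2* (r 0.93, rho 0.82, exact permutation p 0.00813, Benjamini-Hochberg adjusted p 0.0366), with r 0.95 and 0.94 without the 2 farthest mice. *Per1* went with *Per3* (r 0.90, rho 0.96, exact permutation p 0.00278, Benjamini-Hochberg adjusted p 0.0208; r 0.81 without 2 mice). The only opposed pair among the 5 was *Cry1* and *Nr1d1* (r -0.93, rho -0.93, exact permutation p 0.00159, Benjamini-Hochberg adjusted p 0.0161; r -0.83 without 2 mice). With single technical libraries in place of the sums, 0, 0 and 2 pairs passed by exact permutation with Benjamini-Hochberg adjustment, so these calls need the summed counts. Over the alternatives r ran from 0.264 to 0.916 for *Per1* and *Per3*, from 0.734 to 0.989 for *Nr1d2* and *Dbp* and from -0.98 to -0.602 for *Cry1* and *Nr1d1*. It ran from 0.8001 to 0.951 for *Per3* and *Dbp* and from 0.719 to 0.962 for *Per3* and *Nr1d2*. With 7 mice there are 5040 pairings. Correlations within a label series of 2 or 5 mice were not tested. For *Nr1d2* and *Dbp* the 2 farthest mice were the X-labelled ones, so the r of 0.90 is that of the 5 k-labelled mice. For *Per3* with *Dbp* and with *Nr1d2* the mice left out were control mouse 1 and *Notch3-/-* mouse 3. For *Per1* and *Per3* they were control mouse 4 and *Notch3-/-* mouse 3, and for *Cry1* and *Nr1d1* control mouse 1 and *Notch3-/-* mouse 1. X-labelled control mouse 2 stayed in each of these, so their r is not free of the split between label series. The plots of *Dbp* against *Arntl* and *Nr1d2* against *Per2* show 2 kinds of spread: the first places the X-labelled mice in their own corner, while in the second control mouse 4 and *Notch3-/-* mouse 3 stand apart.

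**Figure D5:**
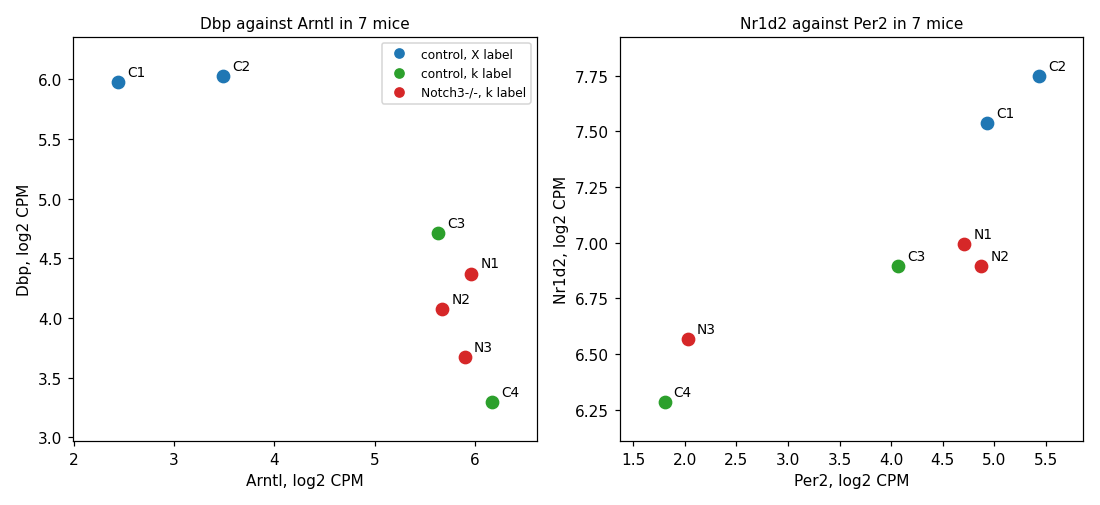
Pairs of clock genes over the 7 mice (log2 CPM): *Dbp* against *Arntl* and *Nr1d2* against *Per2*. Blue, X-labelled control; green, k-labelled control; red, k-labelled *Notch3-/-*.

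The clock contrast itself formed clusters by the gap rule, at 3.83 and 4.10 in X-labelled mice and 0.27 to 1.58 in k-labelled mice. The pooled r values with it thus depart from the rule kept for pairs of clock genes. They only order genes, and a high r may reflect the split between the label series alone. Among 12471 genes with a mean of at least 5 CPM, 81 had an r of at least 0.9 in size with the clock contrast over the 7 mice (0.65%). The highest were *Smtnl2* (0.98), *Rnaseh2b* (0.96), *Ldlrad4* (0.96), *Atoh8* (0.96), *Snx24* (0.95), *Tef* (0.95), *A630052C17Rik* (0.94), *Foxo3* (0.94), *Max* (0.94) and *Pde1a* (0.94). The lowest were *Col4a2* (-0.98), *Colq* (-0.97), *Btnl9* (-0.96), *Lrrn4* (-0.96), *Pla2g15* (-0.95), *Smarcd1* (-0.95), *Rflnb* (-0.95), *Upk3b* (-0.95), *Coa5* (-0.95) and *Trim12a* (-0.95). *Ciart* (0.91) and *Nfil3* (-0.90) were the loop genes that reached this size, on the sides of *Dbp* and *Arntl*. With so many genes and 7 mice a high r is easily met by chance, and a gene that only separates X-labelled from k-labelled mice, such as *Trim12a*, is placed beside *Arntl* by this measure. The hepatocyte score was high in *Notch3-/-* mice 1 and 2 alone, and the clock contrast in control mice 1 and 2 alone. Both thus form clusters by the gap rule, and no pooled r is given between the score and the contrast.

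*Dbp* shares 539 exon bases (18.0% of its exons) with *Sphk2* on the opposite strand, and *Nr1d1* shares 263 (8.55%) with *Thra*. The strand setting of the counting is not given, so reads of *Sphk2* (68.5 to 102 CPM) and *Thra* (54.7 to 86.9 CPM) may enter the counts of *Dbp* and *Nr1d1*. All clock gene values come from bulk heart RNA at 1 time in each mouse, so a daily rhythm, its phase and its amplitude were not measured. Fewer cells of a type and less RNA per cell cannot be told apart. Protein of the clock genes was not analysed here.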

How the data were processed

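The authors deposited a table of counts for 21 libraries with 46517 Ensembl genes and 92 ERCC sequences. The ERCC sequences (34 counts) were left out. The submitters' notes name mm10 and CASAVA and reads of 51 bases. Aligner, counting tool and strand setting are not given in the sources used here. Ensembl IDs were given mouse symbols from GENCODE vM21 (46005 IDs with a symbol). The 3 technical libraries of each mouse were summed, and all 7 mice were kept.

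Tests used edgeR 4.0.16 (filterByExpr, TMM, quasi-likelihood F-test), with DESeq2 1.42.0 and limma 3.58.1 as alternatives, in R 4.3.3. Python 3.11.15 with numpy 2.4.6, pandas 2.3.3, scipy 1.17.1 and matplotlib 3.10.9 made tables and figures. A gene was called at Benjamini-Hochberg FDR below 0.05 and at least 1.5-fold. Log2 CPM used a prior count of 2. Mice of a genotype were compared with the technical libraries as spread. Correlations used exact permutation over the 7 mice. A pair was held to form clusters when the largest gap in a gene was wider than 50% of its range, a rule set after seeing the values. The code was tested on simulated data.

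Alternatives changed the tool, the filter, the libraries used, and the mice left out, and added a hepatocyte score. The label series (X or k in the mouse identifier), as covariate and as comparison, was chosen after seeing the data. For the genotype comparison the k-labelled subset was set beforehand, with earlier results of these data already known. Mouse numbers follow the order of the deposited samples and pair no mice.

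Named genes were the 10 members, the genes of the lists (loop genes, rhythmic outputs, glucocorticoid targets, immediate early genes, cardiomyocyte and hepatocyte genes), genes sharing exon bases with a member, and the 10 highest and 10 lowest r with the clock contrast. Members and lists were chosen with earlier results of these data known. *Xist*, *Ddx3y*, *Gm28438*, *mt-Nd3*, *Trim12a*, *Upk3b*, *Msln* and *Lrrn4* were picked after their values were seen. Values of 1 loop gene are not reported here.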

Additional observations from a re-analysis of the deposited data

Results flagged for a closer look

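*Per1* in control mouse 4 had a log2 CPM of 6.36, far below the other 3 control mice. It is 1 of 16 measures looked at in this way, and about 1 in 20 would stand out by chance. The same mouse was also low in *Per2*, *Per3* and *Dbp* and had the highest *Arntl* and *Cry1*. Without this mouse 5 clock genes had an unadjusted p below 0.05 between genotypes in edgeR (*Per3*, *Clock*, *Dbp*, *Per1* and *Nr1d2*), beside 1229 of 14359 genes (8.56%).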

How the results depend on the processing

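Genes called between genotypes, 1 with the 7 mice summed: DESeq2 601, every gene with at least 1 count 639, each technical library alone 48, 39 and 77, limma-voom on 21 libraries 65, k-labelled mice 0, hepatocyte score as covariate 0, 1 mouse left out 1 to 936 (936 without *Notch3-/-* mouse 3).

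Genes called between label series, 1: control mice only 42, DESeq2 47, at least 1 count 172, at least 10 counts 2, 1 mouse left out 0 to 4. Clock genes called in it, 0: control mice only 1, DESeq2 3, at least 1 count 5, at least 10 counts 1, other alternatives 0. Log2 differences between label series with 1 mouse left out: *Arntl* -3.61 to -2.46, *Npas2* -3.99 to -1.01, *Clock* -0.52 to -0.25, *Cry1* -0.83 to -0.097, *Per1* 0.11 to 1.27, *Per2* 1.17 to 3.59, *Per3* 0.94 to 1.80, *Nr1d1* 0.17 to 0.85, *Nr1d2* 0.77 to 1.37, *Dbp* 1.32 to 2.77.

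Clock genes with p below 0.05 between genotypes, with the share of all genes, 2 (10.4%): limma-voom 1 (7.71%), at least 1 count 4 (8.42%), k-labelled mice 0 (6.38%), hepatocyte score 5 (4.34%), label series as covariate 0 (8.01%), limma-voom on 21 libraries 6 (13.3%), 1 mouse left out 0 to 5 (6.51% to 16.3%). Clock genes without overlap, 0 (8.53% of all genes): 1 mouse left out 0 to 5. The share of all genes with 1 mouse left out is not given here, so these counts show nothing about the clock genes.

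Clock genes that differ among control mice 7, alternatives 5 to 8, beside 1.64% to 3.36% of all genes in these alternatives. Among *Notch3-/-* mice 3, alternatives 0 to 4 (1 mouse left out 0 to 3), beside 5.15% to 16.1%. Among all mice 9, alternatives 6 to 9, beside 8.28% to 21.9%. Correlated pairs 10: single libraries 0, 0 and 2. Of 140 ratios 21 moved by more than the technical SD.

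Log2 fold changes that reversed. k-labelled mice and label series as covariate: *Arntl* -0.0819 and -0.0811, *Npas2* -0.17 and -0.17, *Per2* 0.97 and 0.96, *Nr1d1* 0.0775 and 0.0776, *Nr1d2* 0.20 and 0.20. *Per2*: 1 mouse left out -0.71 to 0.23 (without control mouse 2 0.22, without *Notch3-/-* mouse 3 0.23), library 3 0.12. *Cry1*: 1 mouse left out -0.21 to 0.0753 (without control mouse 4 0.06, highest without *Notch3-/-* mouse 1), library 2 0.0014, library 3 0.12, hepatocyte score 0.26, limma-voom on 21 libraries 0.0120. *Nr1d1*: 1 mouse left out -0.34 to 0.0329 (highest without control mouse 1), library 1 0.0126.

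With the technical library number as a block in limma-voom on 21 libraries, 62 genes were called between genotypes and *Cry1* stood at 0.0142. In that fit 6 clock genes had p below 0.05, beside 12.9% of all genes. Library numbers only name libraries, so this block pairs no mice.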
